A study of Mus musculus with 8 samples.

Results

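The outer limiting membrane (OLM) of the retina is a continuous belt of adherens junctions between the apical ends of Müller glia and the inner segments of photoreceptors, and before those cells mature the same belt joins the apical ends of the retinal progenitor cells (RPCs). The belt is placed by the Crumbs complex, in which a transmembrane Crumbs protein binds the scaffold PALS1 (encoded by *Mpp5*) and PALS1 binds PATJ, and by the Par complex, which marks the apical side of the cell. N-cadherin and β-catenin form the adhesive core, ZO-1 is a scaffold at the junction, ezrin ties the apical membrane to actin, and RhoA controls contraction of the actin belt. The 10 genes described here were taken by name from the count table: *Crb1*, *Crb2*, *Mpp5*, *Patj*, *Pard3*, *Cdh2* (N-cadherin), *Ctnnb1* (β-catenin), *Tjp1* (ZO-1), *Ezr* (ezrin) and *Rhoa*. They are 10 of 54532 genes deposited. The rule that picks them uses names and no expression value, but it was written with earlier results of these data known. All 10 passed the filter on low counts, along with 17998 genes in total.

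RNA from retina was sequenced in bulk for 4 control and 4 *Mettl3*-CKO samples of mice at postnatal day 7 by the labels, while the methods text gives an age a day younger. METTL3 is the catalytic subunit of the complex that writes N6-methyladenosine (m6A) into mRNA. The *Mettl3*-CKO animals carried *Six3-Cre* and floxed *Mettl3* on both alleles, so that deletion starts in embryonic RPCs; cells that do not descend from them, such as vessels and microglia, keep the gene, and the study describes the deletion for the central retina. The alleles of the controls, and whether these controls were littermates, are not given in the sources used here, which also do not say whether a library holds 1 animal or a pool, so p-values measure the spread between these samples.

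The comparison asked whether RNA of the genes that build the OLM differed between *Mettl3*-CKO and control retinas near the age at which the study looked for breaks in that membrane. *Ezr* was the 1 gene of the 10 that passed the test (edgeR quasi-likelihood test, Benjamini-Hochberg adjusted p-value under 0.05), and it was lower in *Mettl3*-CKO retinas. The share of all tested genes called in either direction was 10.5%, with 4.05% called lower, so 1 of 10 is near the share of the whole table. No member was called higher by edgeR, by DESeq2 or by limma voom, and none was higher at an unadjusted p-value under 0.05 in edgeR, where *Ezr* was the only lower one; 24.6% of all tested genes passed that unadjusted threshold in either direction. The median log2 fold change was -0.11 over the 10 genes and -0.01 over all tested genes, and the median absolute log2 fold change was 0.14 and 0.18. In 9 of the 10 genes the 4 *Mettl3*-CKO values overlapped the 4 control values. Over all tested genes the groups did not overlap in 17.4%, with *Mettl3*-CKO higher in 9.77% and lower in 7.58%.

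**Figure D1:**
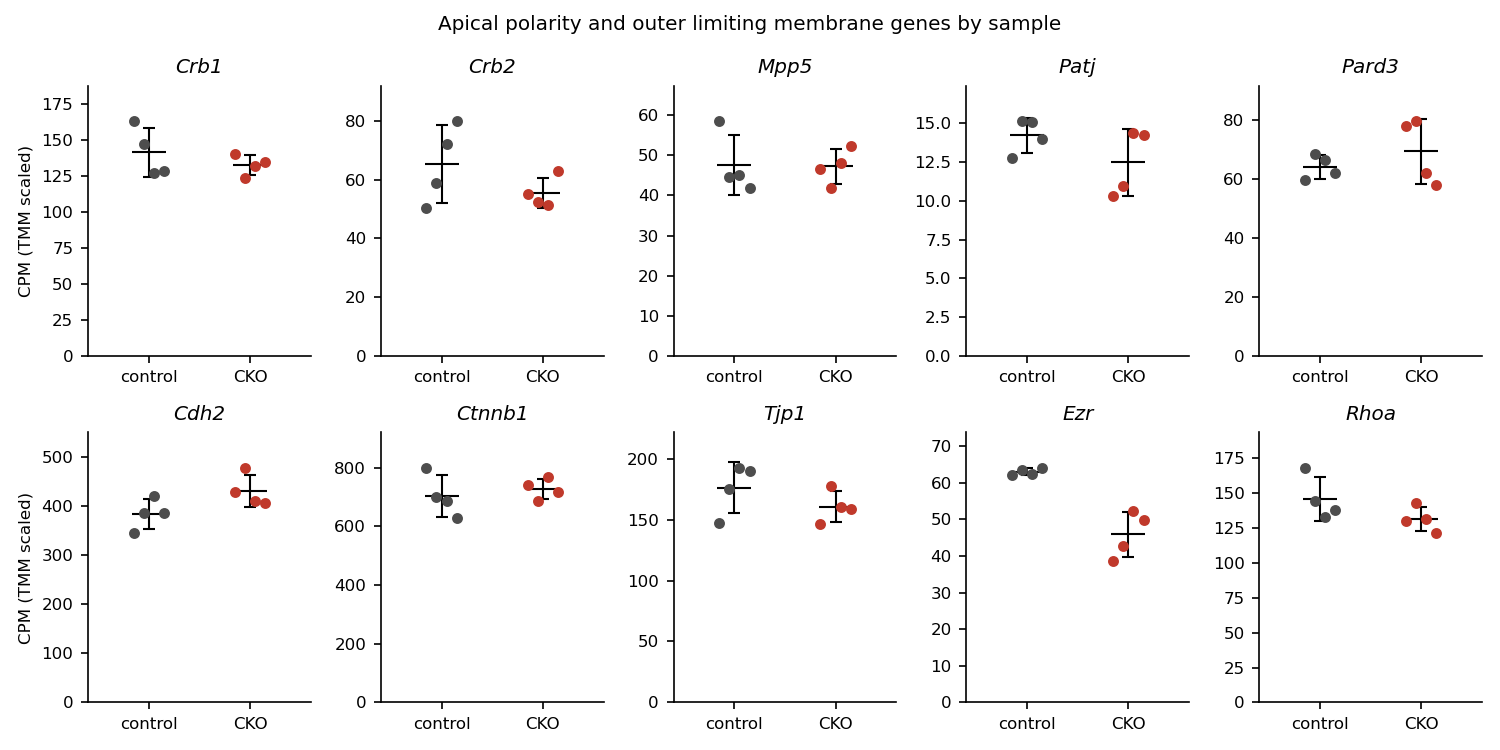
CPM (counts scaled to library size with TMM factors) of the 10 genes, with 1 panel per gene, a linear vertical axis that starts at 0, 1 point per sample, and the mean and SD of each group of 4. The control and *Mettl3*-CKO points overlap in every panel except that of *Ezr*, where the highest *Mettl3*-CKO sample, at 52.2 CPM, lies under the lowest control, at 62.2 CPM.

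Total counts lay between 16227095 and 20281517 per sample, and 3 counts, taken as the limit of detection, correspond to at most 0.185 CPM. *Mettl3* itself was at 33.8, 32.5, 29.4 and 29.3 CPM in controls 1 to 4 and at 21.1, 29.6, 21.3 and 24.3 CPM in the *Mettl3*-CKO samples in the same order (log2 fold change -0.38, SE 0.12, adjusted p = 0.0602 in edgeR). *Mettl3*-CKO replicate 2 reached the lowest controls, so that whole-gene reads, which include exons outside the floxed part, did not separate the groups completely. Lens crystallin and other lens markers summed to 3253 CPM in control replicate 4 and to between 6.98 and 70.1 CPM in the other 3 controls. In the *Mettl3*-CKO samples they summed to between 7.77 and 22.6 CPM. Photoreceptors and progenitors were both present: rod markers summed to between 1652 and 4770 CPM and progenitor and cell cycle markers to between 1640 and 2900 CPM over the 8 samples. The Müller glia markers *Aqp4*, at most 0.586 CPM, and *Abca8a*, at most 0.428 CPM, were near 0 in all 8 samples, whereas the other 11 of the 13 Müller markers passed the filter.

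The 10 genes spanned about 2 orders of magnitude when their levels were set per length of gene. In FPKM, the fragments per kilobase of gene scaled to library size, the control means were 134 ± 11.3 for *Ctnnb1*, 47.4 ± 4.36 for *Cdh2*, 22.5 ± 2.99 for *Tjp1*, 19.3 ± 1.75 for *Rhoa* and 19.1 ± 0.587 for *Ezr* (SD, n = 4). The genes of the Crumbs and Par complexes were lower, at 9.73 ± 1.03 FPKM for *Crb1*, 9.71 ± 2.09 for *Crb2*, 5.37 ± 0.735 for *Mpp5*, 4.39 ± 0.337 for *Pard3* and 1.08 ± 0.101 for *Patj* (SD, n = 4). The adhesive core thus stood at the top and the PATJ scaffold at the bottom. Among neighbours in this order, the control ranges overlapped for *Tjp1* and *Rhoa*, for *Rhoa* and *Ezr*, and for *Crb1* and *Crb2*. These pairs thus have no order beyond their spread in FPKM. The order depends on the length used, which here counts all exon bases of a gene. It was 14432 bases for *Crb1* and 7494 for *Rhoa*, against 5901 and 2197 in 1 coding transcript of each. *Crb2* had 6698 against 6372 and *Ezr* 3290 against 3164. In CPM, without division by length, controls were at 127 to 163 for *Crb1* and 50.3 to 79.8 for *Crb2*. They were at 133 to 168 for *Rhoa* and 62.2 to 64.1 for *Ezr*.

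**Figure D2:**
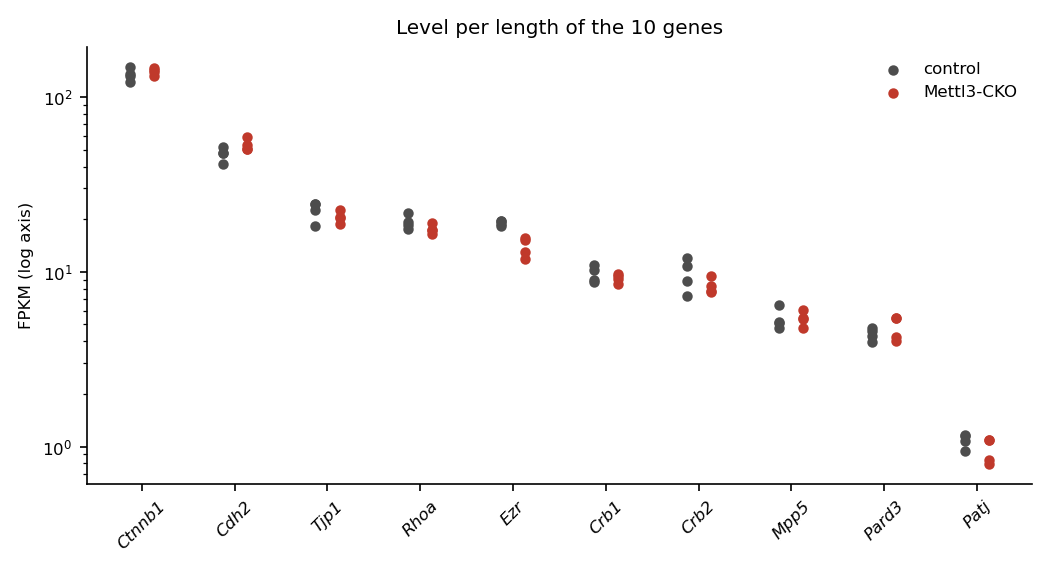
FPKM of the 10 genes on a log axis, in order of the control mean, with 1 point per sample in grey for controls and red for *Mettl3*-CKO. The control means run from 134 FPKM for *Ctnnb1* down to 1.08 FPKM for *Patj*, and *Crb1* and *Crb2* lie at the same height.

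m6A is most often placed at the central A of short motifs of which GGACT, in DNA letters, is the best known, and m6A sites are dense around stop codons. The motif was therefore searched on the sense strand of 1 coding transcript per gene, the one with the longest coding sequence in GENCODE vM21. All 10 genes held GGACT, as did 92.0% of 14280 tested coding genes, for which the median was 1.06 motifs per kb and the quartiles were 0.644 and 1.54 per kb. *Rhoa* with 2.28 motifs per kb, *Ezr* with 2.21 and *Ctnnb1* with 1.93 lay above the upper quartile. *Pard3* with 0.516 per kb and *Mpp5* with 0.366 per kb lay below the lower one. The 4 windows below show the motif nearest to the stop codon in the called gene *Ezr*, in the paralogs *Crb1* and *Crb2*, and in *Mpp5*, whose motif lies closest to its stop codon among the genes shown. Each is 25 bases of transcript sequence from GRCm38, 5′ to 3′, with the motif in capitals.
Ezr: cgtgcaggagGGACTgcaggacgag
Crb1: catacagctgGGACTgtgggaagga
Crb2: ggtcaccacaGGACTtctacctgga
Mpp5: gtgaaggaaaGGACTgttctgtgtc

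The *Ezr* window is chr17:6739750-6739774 on the minus strand, in coding sequence, with the A of its motif 295 bases before the first base of the stop codon. The other 3 windows lie in the 3′ UTR: *Crb1* at chr1:139198460-139198484 on the minus strand, 102 bases past that base, *Crb2* at chr2:37796714-37796738 on the plus strand, 56 bases past it, and *Mpp5* at chr12:78837631-78837655 on the plus strand, 11 bases past it. Of the 14280 genes, 64.8% held the motif within 500 bases of that position. A match is a run of letters; methylation was not measured in these libraries.

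*Ezr* (chr17:6738041-6782784 in GRCm38, minus strand) encodes ezrin, which links apical membrane proteins to actin in Müller glial microvilli and in the retinal pigment epithelium. It was at 62.2, 63.5, 62.3 and 64.1 CPM in controls 1 to 4 and at 38.8, 42.7, 52.2 and 49.9 CPM in the *Mettl3*-CKO samples in the same order. All 4 *Mettl3*-CKO samples lay under all 4 controls, the controls were nearly level, and *Mettl3*-CKO replicates 1 and 2 were lowest. The means were 63.0 ± 0.923 and 45.9 ± 6.22 CPM (SD, n = 4), a fall of 27.2% with a 95% interval from 15.3% to 37.4% (log2 fold change -0.46, SE 0.10, edgeR adjusted p = 0.0138). The call was lost without *Mettl3*-CKO replicate 1, which gave a log2 fold change of -0.38 at an adjusted p of 0.0598, and it held with each of the other 7 samples left out.

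Summed levels of several cell type marker lists also differed between the groups. Retinal pigment epithelium markers summed to between 93.0 and 125 CPM in controls and between 61.4 and 85.1 CPM in *Mettl3*-CKO retinas, and 4 of 9 tested markers were lower. Among them, named after their values were seen, *Pmel* had means of 45.2 ± 6.15 and 28.6 ± 5.41 CPM and *Ttr* of 23.6 ± 3.87 and 10.3 ± 2.45 CPM (SD, n = 4), while *Rpe65* was at most 0.749 CPM in any sample. Of the 9 tested markers, 2 had log2 fold changes above 0, also named after their values were seen. *Lrat* was at 0.87 (edgeR adjusted p = 0.192) and *Mlana* at 0.04 (edgeR adjusted p = 0.967), both at most 1.16 CPM in any sample. Rod markers, with 7 of 12 lower, summed to between 3085 and 4770 CPM in controls and between 1652 and 2853 CPM in *Mettl3*-CKO retinas. Sums of astrocyte markers, with 2 of 5 lower, were 95.1 to 215 CPM in controls and 54.7 to 83.7 CPM in *Mettl3*-CKO retinas, and those of mural cell markers, with 2 of 6 lower and 1 higher, were 22.5 to 70.2 CPM and 15.9 to 19.3 CPM. Müller glia markers summed to between 2508 and 3334 CPM in controls and between 2433 and 2663 CPM in *Mettl3*-CKO retinas, with 1 of 11 tested markers higher and 2 lower. These 3 were named after their values were seen. *Glul* was higher, with means of 402 ± 20.5 and 540 ± 41.0 CPM in controls and *Mettl3*-CKO retinas. *Rlbp1*, at 229 ± 74.7 and 94.7 ± 24.2 CPM, and *Crym*, at 362 ± 96.9 and 180 ± 29.1 CPM, were lower (SD, n = 4). Progenitor and cell cycle markers summed to between 1640 and 2065 CPM in controls and between 2196 and 2900 CPM in *Mettl3*-CKO retinas, with 6 of 14 called higher. The part of these cell types in the *Ezr* result was not tested, and in bulk RNA fewer cells of a type and less RNA per cell cannot be told apart.

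**Figure D3:**
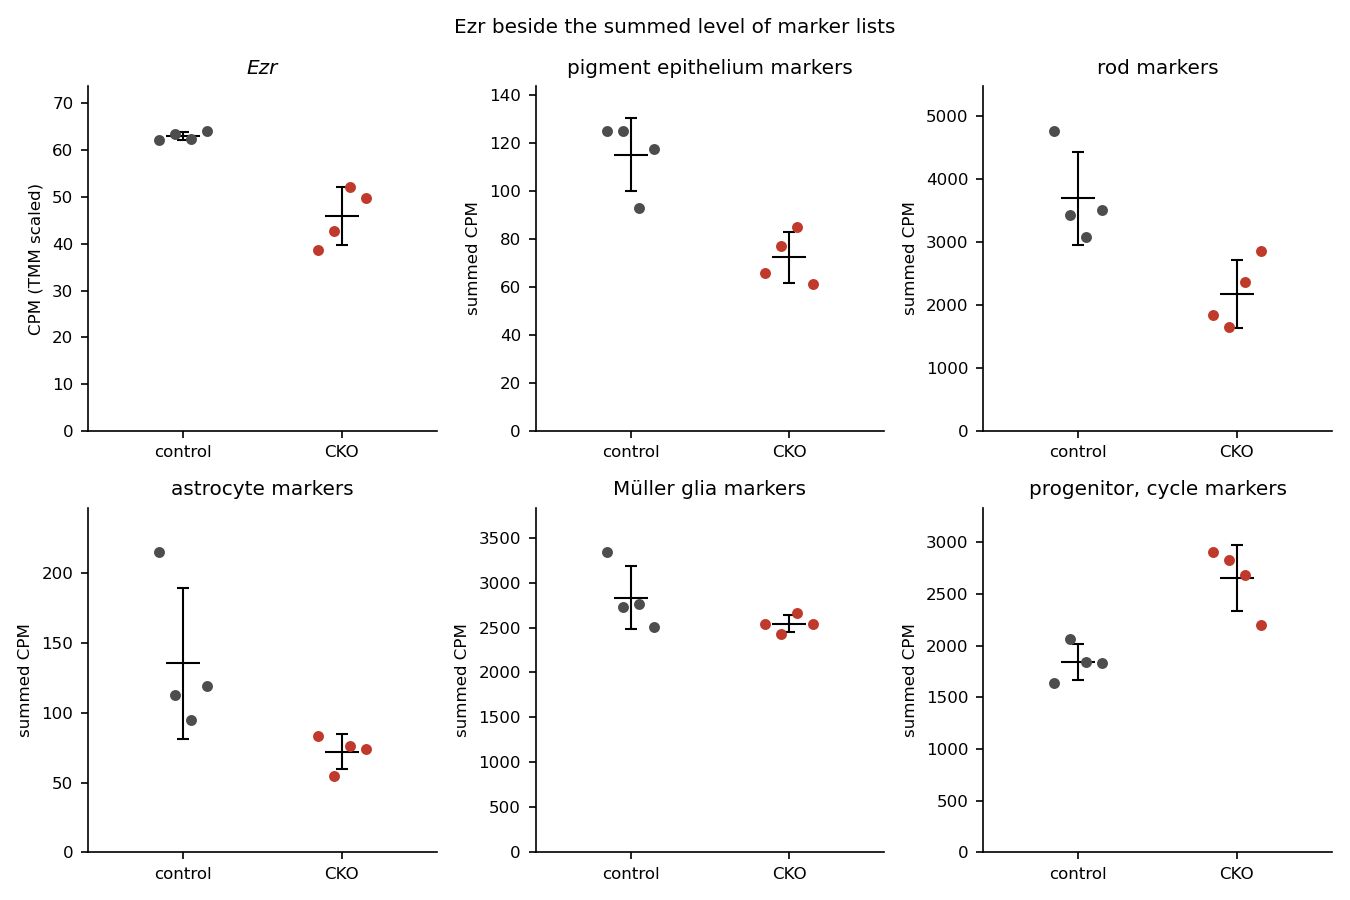
CPM of *Ezr* beside the summed CPM of retinal pigment epithelium, rod, astrocyte, Müller glia, and progenitor and cell cycle markers, with 1 point per sample, the mean and SD of each group of 4, and axes that start at 0. The 4 *Mettl3*-CKO samples lie under the 4 controls for *Ezr* and for the pigment epithelium, rod and astrocyte markers, above them for the progenitor and cell cycle markers, and overlap them for the Müller glia markers.

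The Crumbs proteins set the apical domain. *Crb1* (chr1:139197056-139377100, minus strand), whose mutation in humans causes retinal dystrophy, was at 163, 147, 127 and 128 CPM in controls 1 to 4 and at 140, 124, 132 and 135 CPM in the *Mettl3*-CKO samples. The *Mettl3*-CKO samples lay within the lower part of the control range apart from replicate 2, just under it (log2 fold change -0.09, 95% interval -0.30 to 0.11, edgeR adjusted p = 0.613). Its paralog *Crb2* (chr2:37776249-37799103, plus strand), found at the OLM in RPCs, photoreceptors and Müller glia, was at 50.4, 58.7, 72.2 and 79.8 CPM in controls and at 54.9, 52.2, 51.5 and 62.7 CPM in *Mettl3*-CKO retinas. Controls 3 and 4 lay above all *Mettl3*-CKO samples and control 1 below them all, so the groups overlapped (log2 fold change -0.24, SE 0.13, 95% interval -0.53 to 0.05, edgeR adjusted p = 0.301). Without control replicate 1 *Crb2* was called lower, at a log2 fold change of -0.34 with an adjusted p of 0.0378, and without control replicate 4 the log2 fold change was -0.13. The *Crb1* to *Crb2* ratio of FPKM was 1.502, 1.16, 0.818 and 0.745 in controls and 1.18, 1.10, 1.19 and 0.998 in *Mettl3*-CKO retinas. Controls thus held both the highest and the lowest ratios, and the ranges of the groups overlapped (difference 0.14 in mean log2 ratio, two-sided exact permutation test, p = 0.571, adjusted p = 0.571 over 3 ratios). The difference was 0.32 without control replicate 1 and -0.013 without control replicate 4, so that its size and sign turned on single controls.

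The inner scaffolds of the complex had intervals on both sides of 0. *Mpp5* (chr12:78748907-78840714, plus strand) was at 58.5, 44.6, 45.1 and 41.8 CPM in controls and at 46.6, 41.9, 48.1 and 52.3 CPM in *Mettl3*-CKO retinas. The means were 47.5 ± 7.46 and 47.2 ± 4.32 CPM (SD, n = 4), with the highest value in control replicate 1 (log2 fold change -0.01, 95% interval -0.26 to 0.24, edgeR adjusted p = 0.976). *Patj* (chr4:98395785-98719603, plus strand) was at 12.7, 15.1, 15.0 and 14.0 CPM in controls and at 10.3, 10.96, 14.4 and 14.2 CPM in *Mettl3*-CKO retinas. *Mettl3*-CKO replicates 1 and 2 lay under every control and replicates 3 and 4 among them, on 186 to 291 counts per sample, the fewest of the 10 genes (log2 fold change -0.19, 95% interval -0.48 to 0.11, edgeR adjusted p = 0.446). The *Mpp5* to *Patj* ratio was 6.85, 4.39, 4.47 and 4.47 in controls and 6.76, 5.70, 4.98 and 5.49 in *Mettl3*-CKO retinas. All *Mettl3*-CKO ratios exceeded those of 3 controls and lay under that of control replicate 1 (difference 0.20 in mean log2 ratio, two-sided exact permutation test, p = 0.314, adjusted p = 0.571). Without that control the difference was 0.36.

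*Pard3* (chr8:127063893-127612286, plus strand) encodes PAR-3, the scaffold that brings the Par complex to forming junctions. It was at 59.4, 68.3, 66.3 and 62.0 CPM in controls and at 77.9, 79.4, 61.8 and 58.0 CPM in *Mettl3*-CKO retinas. *Mettl3*-CKO replicates 1 and 2 lay above every control, replicate 3 among them, and replicate 4 below them all, so no direction was shared (log2 fold change 0.11, 95% interval -0.13 to 0.36, edgeR adjusted p = 0.589).

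The adhesive core genes were the most abundant of the 10 per length. *Cdh2*, which encodes N-cadherin, the classical cadherin of the OLM, was at 345, 386, 419 and 385 CPM in controls and at 429, 478, 409 and 406 CPM in *Mettl3*-CKO retinas. *Mettl3*-CKO replicates 1 and 2 exceeded all controls, and replicates 3 and 4 lay between the second highest and the highest control (log2 fold change 0.16, 95% interval -0.03 to 0.36, edgeR adjusted p = 0.282). *Ctnnb1* (chr9:120929216-120960507, plus strand), whose product binds the cadherin tail and also acts in Wnt signalling, was at 799, 698, 685 and 628 CPM in controls and at 739, 688, 768 and 717 CPM in *Mettl3*-CKO retinas. All 4 *Mettl3*-CKO samples fell inside the control range (log2 fold change 0.05, 95% interval -0.15 to 0.25, edgeR adjusted p = 0.791). *Ulk4* on the other strand shares 759 exon bases with *Ctnnb1*, 14.6% of them, but had 2182 counts over all samples against 104138. *Crb2* shares 113 exon bases, 1.69% of them, with *Dennd1a*, which had 16833 counts over all samples against 8743 for *Crb2*, and *Rhoa* shares 324 with *Gm37401* and 32 with *Tcta*, each on the other strand. The *Cdh2* to *Ctnnb1* ratio of FPKM was 0.278, 0.356, 0.394 and 0.395 in controls and 0.374, 0.447, 0.343 and 0.364 in *Mettl3*-CKO retinas, and the groups overlapped (difference 0.11 in mean log2 ratio, two-sided exact permutation test, p = 0.543, adjusted p = 0.571). The difference was 0.032 without *Mettl3*-CKO replicate 2 and -0.0043 without control replicate 1. The smallest p that 4 against 4 samples allow in this test is 0.0286.

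*Tjp1* (chr7:65296165-65527781, minus strand) encodes ZO-1, which in the retina sits at the adherens belt of the OLM. It was at 147, 175, 193 and 190 CPM in controls and at 146, 178, 160 and 158 CPM in *Mettl3*-CKO retinas. *Mettl3*-CKO replicate 1 and control replicate 1 were the lowest of their groups at nearly the same level, and controls 3 and 4 were the highest of all 8 samples (log2 fold change -0.13, 95% interval -0.35 to 0.08, edgeR adjusted p = 0.460). *Rhoa* (chr9:108306129-108337934, plus strand) was at 168, 145, 133 and 137 CPM in controls and at 130, 142, 131 and 122 CPM in *Mettl3*-CKO retinas. Replicates 1, 3 and 4 of *Mettl3*-CKO lay under every control and replicate 2 among them (log2 fold change -0.15, 95% interval -0.35 to 0.05, edgeR adjusted p = 0.348).

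Across the 9 genes that did not pass the test, log2 fold changes lay between -0.24 and 0.16 with SEs of 0.09 to 0.14, and the 95% intervals reached from a fall of 30.6% to a rise of 28.1%.

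**Figure D4:**
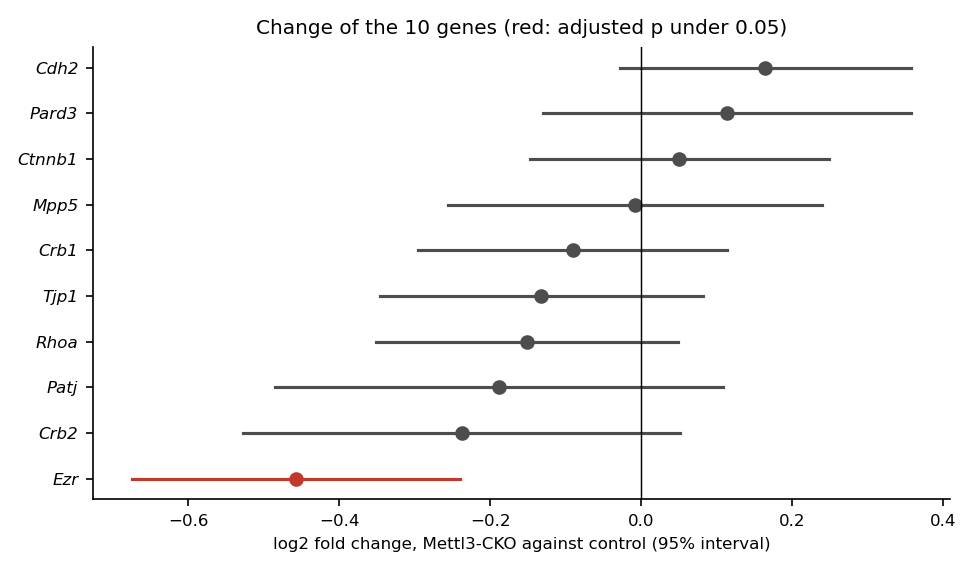
Log2 fold change, *Mettl3*-CKO against control, of each of the 10 genes in order, with points for the estimate and lines for the 95% interval from edgeR; red marks an adjusted p under 0.05 and the vertical line marks no change. The interval of *Ezr*, from -0.67 to -0.24, lies below 0, and those of the other 9 genes cross it.

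The genes that work with these 10 at the apical junction were described from a list of 56 partners, of which 55 were tested; *Ocln*, encoding occludin of tight junctions, was at most 0.796 CPM and did not pass the filter. Of the 55, 5 were called higher and 2 lower, beside 6.49% and 4.05% of all tested genes, with a median log2 fold change of -0.08. The groups did not overlap in 6 that were higher and 4 that were lower, beside 9.77% and 7.58% of all tested genes. These counts are near the shares of the whole table. Single lists held 6 to 10 tested genes, so 1 or 2 calls in a list are not read as a result about that list. Those called higher were a Par complex subunit, 2 of the 3 nectins and a junctional adhesion molecule that bind across the cell gap, and a RhoA inhibitor. A basolateral regulator and an apical sialomucin were called lower.

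In the Par complex, 1 of 7 partners was called, in the higher direction. *Pard6g*, which encodes a PAR-6 adaptor that joins CDC42 to atypical protein kinase C, was at 21.0, 24.9, 26.4 and 23.3 CPM in controls and at 42.6, 39.3, 36.9 and 36.2 CPM in *Mettl3*-CKO retinas. Every *Mettl3*-CKO sample lay above every control (log2 fold change 0.70, SE 0.10, edgeR adjusted p = 0.00128), and the call held with each sample left out in turn. The basolateral regulators oppose the apical complexes, and 1 of 6 was called lower. *Llgl2* (chr11:115824049-115855780, plus strand), a lethal giant larvae homologue, was at 89.5, 76.5, 76.4 and 86.7 CPM in controls and at 37.9, 35.9, 54.2 and 64.3 CPM in *Mettl3*-CKO retinas. The groups did not overlap, and *Mettl3*-CKO replicates 1 and 2 were the lowest, as for *Ezr* and *Patj* (log2 fold change -0.77, SE 0.16, edgeR adjusted p = 0.0112; -0.67 at an adjusted p of 0.0597 without *Mettl3*-CKO replicate 1).

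Among adherens junction partners 2 of 10 were called higher, and both calls were nectins, adhesion molecules that recruit cadherins through afadin. *Nectin1* (chr9:43743984-43807461, plus strand) was at 58.4, 68.2, 57.4 and 56.0 CPM in controls and at 98.5, 92.6, 73.8 and 82.1 CPM in *Mettl3*-CKO retinas, with no overlap (log2 fold change 0.53, SE 0.11, edgeR adjusted p = 0.00895). *Nectin3* (chr16:46387706-46498525, minus strand) was at 91.5, 98.5, 99.7 and 94.8 CPM in controls and at 157, 138, 125 and 117 CPM in *Mettl3*-CKO retinas, again without overlap (log2 fold change 0.48, SE 0.10, edgeR adjusted p = 0.00913). Both were called with each sample left out in turn. Of the zonula occludens partners 1 of 7 was called higher: *Jam3* (chr9:27097384-27155421, minus strand), a junctional adhesion molecule, at 61.8, 66.3, 67.2 and 56.3 CPM in controls and 82.5, 76.2, 89.1 and 79.2 CPM in *Mettl3*-CKO retinas. All 4 *Mettl3*-CKO samples lay above the controls (log2 fold change 0.38, SE 0.09, edgeR adjusted p = 0.0199), and the call was lost without *Mettl3*-CKO replicate 1 (adjusted p = 0.0718), *Mettl3*-CKO replicate 3 (0.0592) or control replicate 4 (0.0537).

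**Figure D5:**
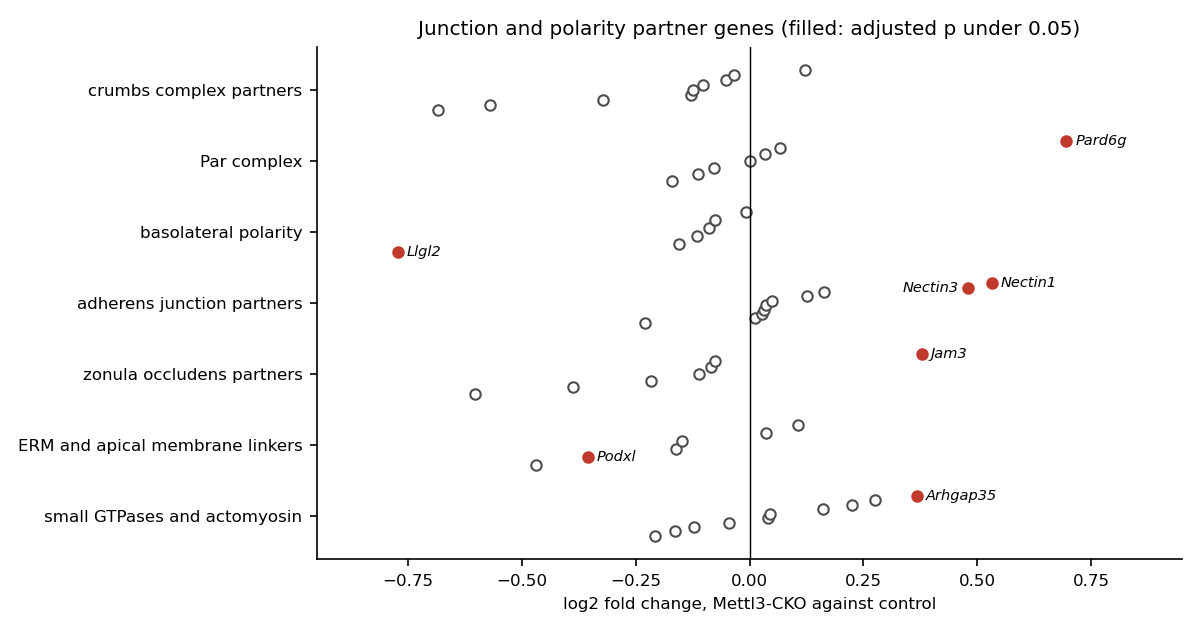
Log2 fold change, *Mettl3*-CKO against control, of the 55 tested partner genes in 7 lists, with 1 point per gene; filled red points passed the test and open points did not. The 5 called higher run from *Arhgap35* at 0.37 to *Pard6g* at 0.70, and the 2 called lower are *Podxl* at -0.36 and *Llgl2* at -0.77.

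Of 6 genes for ERM proteins, which are ezrin, radixin and moesin, and for apical membrane proteins, 1 was called lower. *Podxl* (chr6:31519488-31563981, minus strand), a sialomucin that binds ezrin, was at 187, 158, 149 and 159 CPM in controls and at 130, 127, 112 and 141 CPM in *Mettl3*-CKO retinas. The groups did not overlap (log2 fold change -0.36, SE 0.10, edgeR adjusted p = 0.0340), but the call was lost without *Mettl3*-CKO replicates 1, 2 or 3 or control replicates 2 or 4, each left out alone, at adjusted p-values from 0.0611 to 0.101. Endothelial cells also make *Podxl*, and 8 of 11 tested endothelial markers were lower, with a median log2 fold change of -1.31 over the 11. Their summed levels were 573 to 661 CPM in controls and 544 to 644 CPM in *Mettl3*-CKO retinas. Most of that sum came from *Kdr*, named after its values were seen, at a log2 fold change of 0.02 (edgeR adjusted p = 0.921). The part of endothelial cells in the *Podxl* result was not tested. The other ERM genes, *Msn* and *Rdx*, named after their values were seen as the paralogs of *Ezr*, had log2 fold changes of -0.16 (edgeR adjusted p = 0.329) and 0.04 (adjusted p = 0.865). *Prom1*, an apical membrane protein of progenitors and photoreceptor discs also named after its values were seen, was at 306 to 467 CPM in controls and 213 to 297 CPM in *Mettl3*-CKO retinas, at a log2 fold change of -0.47 and an adjusted p of 0.0624 in edgeR. The part of rods, whose markers were lower as given above, in these values was not tested.

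Among small GTPase and actomyosin genes 1 of 10 was called higher. *Arhgap35* (chr7:16493719-16614993, minus strand), encoding p190RhoGAP, which switches RhoA off, was at 224, 246, 250 and 212 CPM in controls and at 325, 301, 288 and 289 CPM in *Mettl3*-CKO retinas. Every *Mettl3*-CKO sample exceeded every control (log2 fold change 0.37, SE 0.08, edgeR adjusted p = 0.0164), and the call was lost without *Mettl3*-CKO replicate 1 (adjusted p = 0.0605) or control replicate 4 (0.0529). None of the 9 Crumbs complex partners passed the test in edgeR. At an unadjusted p under 0.05 there were 2, *Lin7b* and *Mpp4*, the latter named after its values were seen, beside 24.6% of all tested genes. The 2 with the largest changes were rare RNAs: *Lin7b*, a scaffold that binds PALS1, at 2.57 to 3.81 CPM in controls and 1.80 to 2.71 CPM in *Mettl3*-CKO retinas (log2 fold change -0.69, adjusted p = 0.0654), and *Crb3*, the third Crumbs gene, at 0.963 to 3.14 CPM and 1.22 to 1.68 CPM (log2 fold change -0.57, adjusted p = 0.343). *Mpp4*, a photoreceptor scaffold, was at 62.2 to 68.2 CPM in controls and 45.2 to 62.6 CPM in *Mettl3*-CKO retinas (log2 fold change -0.32, edgeR adjusted p = 0.0780). DESeq2 called *Lin7b* and *Mpp4* lower and limma voom called *Mpp4*.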

How the data were processed

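Total RNA of mouse retina was made into libraries with a NEBNext Ultra kit and sequenced as paired reads. Per the labels and the methods, quality-filtered reads were aligned by the authors with HISAT2 (build GRCm38), and featureCounts assigned them to genes. The deposited values are raw counts with a length per gene. The annotation release and strand setting are not given in the sources used here, so reads over exons shared with genes on the other strand are uncertain. All 8 columns were used and grouped by the labels.

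The main test was edgeR 4.0.16 run under R 4.3.3: filterByExpr kept 17998 genes, TMM factors were 0.969 to 1.01, and glmQLFTest p-values were adjusted by Benjamini-Hochberg over all of them at 0.05. SEs are the absolute log2 fold change over the square root of F. FPKM was computed from counts, deposited lengths and totals, and FPKM ratios were compared by exact permutation (scipy). The biological coefficient of variation was 15.0%, and same-group samples differed by a chi-square of at least 5.01 per gene, so all were kept as separate. Intervals cover the spread between samples; the limit of 3 counts covers counting error only. DESeq2 1.42.0, limma 3.58.1 (voom), other scalings and filters, a replicate block and left-out samples were alternatives. The scripts were tested on simulated data.

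The members and lists were chosen with earlier results of these data known. Named genes are the 10 members, *Mettl3*, partners called at 0.05 and, for a list with none, the 2 with the largest change; other names are marked in the text. Marker lists of endothelial, mural, pigment epithelium, lens, astrocyte, microglia, rod, Müller and progenitor genes were counted and summed (1 planned rod marker is not reported here and is left out of the rod counts and sums): lens markers gave 4 lower of 7 tested, and microglia markers 0 calls of 8 in edgeR, with 1 at an unadjusted p under 0.05 (44.3 to 127 CPM in controls, 68.5 to 101 in *Mettl3*-CKO). The groups overlapped in all 7 tested lens markers. Their sum was 3253 CPM in control replicate 4, while the other controls, at 6.98 to 70.1 CPM, spanned the *Mettl3*-CKO samples. All 10 members had the same coordinates and exon length in GENCODE vM21.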

Additional observations from a re-analysis of the deposited data

Results flagged for a closer look

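Dixon's criterion for a sample far from the rest of its group was applied to 48 groups of 4 samples, of which 2 passed it where chance gives about 2.4. The log2 ratio of *Mpp5* to *Patj* FPKM was 2.78 in control replicate 1 and 2.14 to 2.16 in the other controls; the difference between *Mettl3*-CKO and control means of this log2 ratio, 0.20 over all samples, was 0.36 without that control. The summed lens markers were at 3253 CPM in control replicate 4 and at 6.98 to 70.1 CPM in the other controls. Without control replicate 4, *Ezr* had a log2 fold change of -0.45 (adjusted p = 0.0347) and *Crb2* of -0.13, both from edgeR.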

How the results depend on the processing

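*Ezr* stayed called lower in all 8 other settings that kept every sample, at log2 fold changes of -0.47 to -0.44 and adjusted p-values of 0.000815 to 0.0164, and without control replicates 1 and 4 together (-0.46, adjusted p = 0.0264). With single samples left out its log2 fold change lay between -0.52 and -0.38. The number of members called lower ranged from 0 without *Mettl3*-CKO replicate 1 to 2 without control replicate 1, and it was 0 at an adjusted p under 0.01. Calls over all tested genes moved with the same left-out samples. They were 509 higher and 185 lower without *Mettl3*-CKO replicate 1, and 1882 and 1289 without control replicate 1, against 1168 and 729 with every sample. Among partners, the number called lower was 5 in DESeq2, 6 in limma voom and 4 with no filter on low counts, against 2, while the calls over all genes also rose, to 1019, 1568 and 819 lower against 729; with single samples left out, 3 to 6 were called higher and 0 to 6 lower, and without control replicates 1 and 4 there were 3 and 1. The genes gained included *Prom1* in DESeq2 (adjusted p = 0.0217), voom (0.0455) and with no filter (0.00607). No called result changed direction. Among those not called, *Mpp5* ran from -0.065 to 0.11 in log2 fold change with single samples left out and was 0.10 in voom, and the ratio differences of *Crb1* to *Crb2* and *Cdh2* to *Ctnnb1* fell to -0.013 and -0.0043. Correlations of same-numbered deviations were -0.114 to 0.249, and 2 of 4 numbers matched best with themselves. With 4 samples per group these values cannot tell whether replicate numbers mark paired samples. The fit with replicate number as a block called 1 member lower and 0 higher, and 5 partners higher and 3 lower. Members had 186 counts or more in each sample, and their intervals give what the spread between samples allows.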

Other observations

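The 4 *Mettl3*-CKO samples differed among themselves for several of these genes, a pattern noticed in the values and not tested. *Ezr* was at 38.8 and 42.7 CPM in *Mettl3*-CKO replicates 1 and 2 and at 52.2 and 49.9 CPM in replicates 3 and 4. *Patj* was at 10.3 and 10.96 CPM in the former and 14.4 and 14.2 CPM in the latter, and *Llgl2* at 37.9 and 35.9 CPM against 54.2 and 64.3 CPM. *Pard3* ran the other way, at 77.9 and 79.4 CPM against 61.8 and 58.0 CPM, as did *Nectin3*, at 157 and 138 CPM against 125 and 117 CPM. Summed rod markers were at 1849 and 1652 CPM in replicates 1 and 2 and at 2366 and 2853 CPM in replicates 3 and 4, and progenitor and cell cycle markers at 2900 and 2828 CPM against 2681 and 2196 CPM.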
